A study of Mus musculus with 16 samples.

Results

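The 26S proteasome cuts ubiquitin-tagged proteins into short peptides. A barrel-shaped core particle of alpha and beta rings holds the catalytic beta subunits, and a regulatory cap binds, unfolds and feeds in the substrate. Interferon can induce 3 alternative catalytic subunits and the PA28 activator, and the resulting immunoproteasome is known for making peptides that MHC class I molecules present. In microglia, the resident macrophages of the brain, the proteasome also clears misfolded protein and degrades regulators of inflammatory signalling.

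The genes described here are the rows of the deposited expression table whose symbol begins with Psma, Psmb, Psmc, Psmd, Psme, Psmf or Psmg followed by a number. There were 49 such genes among 17951. The 49 comprised 15 core subunits (8 of the alpha and 7 of the beta ring), 5 immunoproteasome genes, 20 regulatory genes and 7 assembly chaperones. The other 2 genes matched the naming pattern and were put in none of these classes. The immunoproteasome genes were the catalytic subunits Psmb8, Psmb9 and Psmb10 and the activator subunits Psme1 and Psme2. These 2 unclassed genes were Psmc3ip, known for its part in meiotic recombination, and Psme2b, an intronless copy of Psme2. All 49 had passed the filter of the authors on low counts, and genes removed by that filter were not analysed here.

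RNA was sequenced from 16 libraries of microglia sorted from mouse brain as Cd11b and Cd45 positive cells. By the methods of the study the gate also required CX3CR1, a receptor of microglia. Mice of the 5xFAD line, a transgenic model of Alzheimer's disease that forms amyloid plaques, were compared with WT mice. All animals, WT included, had received methoxy-X04 (Me-X04), which crosses into the brain, binds amyloid and fluoresces, so that microglia of the transgenic mice (TG) could be divided into cells without the dye (TG Me-X04-) and cells that had taken it up (TG Me-X04+). There were 4 TG Me-X04+, 5 TG Me-X04- and 7 WT libraries, each from 1 animal label, and the 4 TG Me-X04+ libraries bore the animal labels of TG Me-X04- libraries 1 to 4. By the labels the WT mice were 2 months old and those of both TG groups 6 months, while the methods of the study state other ages, so by the labels age and genotype cannot be told apart in any comparison with WT. As the WT microglia were all Me-X04 negative, dye and genotype also change together between TG Me-X04+ and WT.

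The libraries held between 15623664 and 27579017 reads on the listed genes. The share of these reads on genes of the mitochondrial genome was 11.0 to 24.1% among the WT libraries, 18.2 to 35.6% where TG cells lacked the dye and 27.2 to 44.8% where they held it. Independently of the groups, the libraries parted into 2 sets on the first principal component of their deviations from the group means (37.8% of the variance). Set A held WT 1 to 3, TG Me-X04- 1 and 2 and TG Me-X04+ 1 and 2, and set B held the other 9 libraries. The methods name more than 1 sequencer without assigning libraries to them, so the cause of the sets was not tested. The summed level of 9 microglia markers was 4047 to 8044 RPKM (reads per kilobase of gene, relative to library size), against at most 29.7 RPKM for any list of markers of another brain or blood cell type. No listed T or NK cell marker was in the table.

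Promoters are shown for 4 members that were called or enter the ratios below and whose windows held a motif match. The sequences are those of RefSeq on GRCm38.p6 and run from 250 bases before to 50 bases after the start of transcription. Windows were found for 41 of the 49 members, which had 44 windows in all, and none for Psmb1 or Psmb7. Capitals mark a match to 1 of 3 short motifs searched on both strands: the interferon regulatory factor repeat GAAANNGAA, the gamma-activated site TTCNNNGAA and the antioxidant response element core TGACNNNGC. The windows of Psmg3, which was also called, and of Psmb9 and Psmb10, which also enter the ratios, held no match and are not shown.
Psme1, chr14:55578244-55578543, plus strand: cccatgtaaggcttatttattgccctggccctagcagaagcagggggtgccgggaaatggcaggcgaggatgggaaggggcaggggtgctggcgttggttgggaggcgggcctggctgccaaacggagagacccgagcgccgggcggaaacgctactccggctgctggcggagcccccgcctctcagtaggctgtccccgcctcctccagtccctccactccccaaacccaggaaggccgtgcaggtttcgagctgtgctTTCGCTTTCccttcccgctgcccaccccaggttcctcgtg
Psmb8, chr17:34197945-34198244, plus strand: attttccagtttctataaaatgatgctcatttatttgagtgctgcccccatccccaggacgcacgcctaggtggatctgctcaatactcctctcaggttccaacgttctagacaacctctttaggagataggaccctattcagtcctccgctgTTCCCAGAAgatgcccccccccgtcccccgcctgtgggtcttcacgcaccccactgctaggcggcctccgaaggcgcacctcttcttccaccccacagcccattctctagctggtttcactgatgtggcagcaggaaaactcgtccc
Psmb5, chr14:54617946-54618245, minus strand: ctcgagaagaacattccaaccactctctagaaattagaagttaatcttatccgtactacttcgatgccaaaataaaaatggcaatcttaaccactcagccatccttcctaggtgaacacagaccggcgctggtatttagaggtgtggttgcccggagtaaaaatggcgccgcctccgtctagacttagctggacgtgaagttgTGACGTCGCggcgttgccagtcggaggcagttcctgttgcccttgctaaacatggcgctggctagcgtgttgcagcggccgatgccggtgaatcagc
Psmb6, chr11:70525107-70525406, plus strand: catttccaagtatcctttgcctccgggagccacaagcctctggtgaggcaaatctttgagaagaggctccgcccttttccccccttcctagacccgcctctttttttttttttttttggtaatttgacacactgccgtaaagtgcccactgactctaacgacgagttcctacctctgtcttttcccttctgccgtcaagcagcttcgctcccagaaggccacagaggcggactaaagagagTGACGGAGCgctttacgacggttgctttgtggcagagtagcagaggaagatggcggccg
In the Psme1 window the interferon repeat lay on the minus strand, beginning 10 bases from the start site. The Psmb8 window held the gamma-activated site 97 bases before the start, and the Psmb5 and Psmb6 windows held the antioxidant core 47 and 9 bases before it. The interferon repeat was in 15.9% of the member windows and in 8.56% of all 32851 RefSeq windows of this length. The gamma-activated site was in 6.82% and 8.30%, and the antioxidant core in 13.6% and 12.4%. A match of letters is a description and not a binding site.

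TG Me-X04+ microglia were first compared with TG Me-X04- microglia of the same mice, which asks what differs between cells with and without amyloid dye in the same brains. Of the 49 members, 2 were higher and 1 was lower with a log2 fold change (log2FC) of 0.7 or more in size and an adjusted p below 0.05. Psme1, the alpha subunit of the PA28 activator, rose 2.67-fold. Psmb1, a beta ring subunit without catalytic activity, rose 1.88-fold. Psmg3, a chaperone that helps to assemble the alpha ring, fell by 2.47 on the log2 scale. The 3 members called are 6.12% of 49, beside 5.49% of all genes. By direction, 4.08% of the members were called higher and 2.04% lower, against 3.44% and 2.06% of all genes. This balance depended on the processing. With quantile normalization 0 members were higher and 2 lower (Psma6 and Psmg3). Scaling by reads outside mitochondrial genes gave 1 higher (Psme1) and 3 lower (Psma6, Psmg1 and Psmg3). Library weights, which leave the scaling unchanged, gave 1 higher (Psme1) and 2 lower (Psmg1 and Psmg3). The share of higher calls over all genes, 62.6% with the deposited scaling, was 50.8% with quantile normalization and 20.8% when mitochondrial reads were left out of the scaling. The groups did not overlap for 3 members (6.12%) and for 7.93% of all genes, and an unadjusted p under 0.05 was found for 8 members (16.3%) and 18.7% of all genes. The shares of members lay near those of all genes, which is no result about the members as a group. All tests across genes were made with limma and Benjamini-Hochberg adjustment over 17951 genes. In sorted cells in bulk, fewer expressing cells and less RNA per cell cannot be told apart.

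Psme1 forms a ring with Psme2 that opens the core without ATP. Its level was 6.56, 6.35, 5.71 and 5.92 log2 RPKM in TG Me-X04+ libraries 1 to 4. The TG Me-X04- libraries 1 to 5 had 5.64, 5.11, 4.40, 4.59 and 3.85 log2 RPKM. In the 7 WT libraries it was 4.25 to 5.04 log2 RPKM with a median of 4.53. All 4 TG Me-X04+ libraries lay above every other library, but the lowest (5.71) was only just above TG Me-X04- library 1 (5.64). The log2FC was 1.41 with an SE of 0.30 against TG Me-X04- (limma, adjusted p = 0.0110). Within animals TG1 to TG4 the difference was 0.92, 1.24, 1.30 and 1.33 log2 units. The Psme1 gene lies on chromosome 14 (55578123 to 55581529, plus strand, GRCm38) and shares 14 exonic bases with Emc9 on the other strand, while 5.47% of its 50-base words occur in other genes. Between 760 and 3152 reads per library lay behind these values. The call was kept when any 1 of the 9 TG libraries was left out, and was lost with quantile normalization (0.94, limma, adjusted p = 0.0663), in set A alone (1.08, adjusted p = 0.114) and when only the 2 groups were fitted (1.41, adjusted p = 0.0571).

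Psmb1 stood at 4.29, 4.90, 4.24 and 4.40 log2 RPKM in the TG Me-X04+ libraries. Its TG Me-X04- values were 2.76, 3.60, 4.08, 3.74 and 3.57 log2 RPKM, and the WT values ran from 3.41 to 3.93 log2 RPKM. The TG Me-X04+ libraries were again all above the others, and again the gap to the nearest, TG Me-X04- library 3, was small. The log2FC was 0.91 with an SE of 0.24 (limma, adjusted p = 0.0345). With the replicate number as a block over all 3 groups the log2FC was 0.95, no longer past the threshold (limma, adjusted p = 0.0524). This block also ties WT libraries to TG libraries of the same number, which are different animals, so it is not a test within animals. The mean difference within animals was 0.91. The within-animal differences were 1.53, 1.30, 0.16 and 0.66 log2 units, larger in the set A animals TG1 and TG2 than in the set B animals TG3 and TG4. The call was also lost when TG Me-X04- library 1, 2, 4 or 5 or TG Me-X04+ library 2 or 4 was left out, with log2FC from 0.71 to 0.96. Counting the block, the call was lost in 8 of the 13 alternatives that did not leave out a single library. The log2FC was 0.52 with scaling by reads outside mitochondrial genes (limma, adjusted p = 0.256), 0.63 with quantile normalization (adjusted p = 0.185), 0.67 with library weights (adjusted p = 0.143) and 0.86 with limma voom (adjusted p = 0.0501). It was 1.42 in set A alone (limma, adjusted p = 0.115), 0.52 in set B alone (adjusted p = 0.114) and 0.91 with only the 2 groups fitted (adjusted p = 0.121). Psmb1 is on chromosome 17 (15475021 to 15499751, minus strand) and shares no exonic bases with another gene.

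Psmg3 was a low gene. Its TG Me-X04+ values of -3.55, -1.16, -2.57 and -1.04 log2 RPKM rested on 2, 18, 9 and 31 reads. In TG Me-X04- the values were -0.27, -0.26, 0.85, 1.28 and 0.36 log2 RPKM, from 38 to 176 reads. WT libraries had -1.72 to 0.28 log2 RPKM from 13 to 86 reads and overlapped both TG groups. The log2FC of -2.47 had an SE of 0.59 (limma, adjusted p = 0.0210), and the level was lower in 4 of 4 animals. Leaving out TG Me-X04- library 3 or 4, or TG Me-X04+ library 1 or 3, ended the call (adjusted p from 0.0516 to 0.0596 by limma, log2FC from -2.35 to -1.98). It was also not called in set A alone (-2.09, limma, adjusted p = 0.425) or with only the 2 groups fitted (-2.47, adjusted p = 0.0708), and with a pseudocount of 1 RPKM the call was kept at -0.88. The gene lies on chromosome 5 (139823592 to 139826885, minus strand). It shares 280 exonic bases with Gm26938 on the same strand, so the counts of these genes are uncertain.

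**Figure D1:**
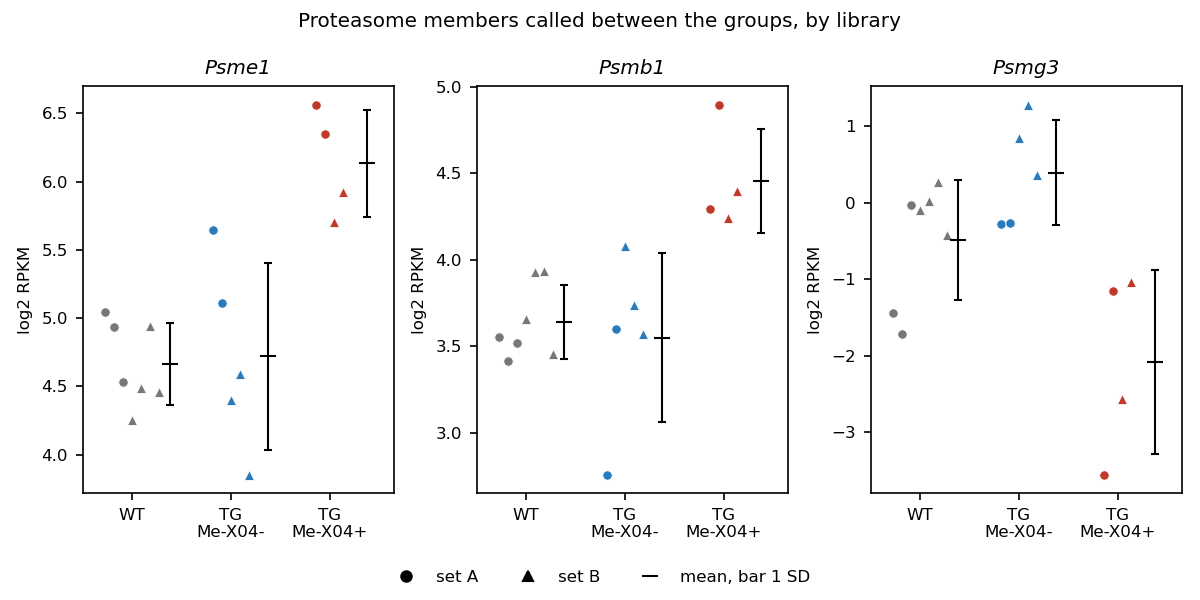
Level of Psme1, Psmb1 and Psmg3 in log2 RPKM (y axis, a different range in each panel) in every library, by group (x axis). Circles and triangles mark libraries of set A and set B, and the bars give the mean with 1 SD; the TG Me-X04+ libraries lie above all others for Psme1 and Psmb1, while for Psmg3 they lie below all TG Me-X04- libraries.

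The immunoproteasome genes did not move as 1 group. Their median log2FC in TG Me-X04+ against TG Me-X04- was 0.46, with a range from -0.13 to 1.41. Of these genes, 1 of 5 (Psme1) was called, beside 5.49% of all genes. Over all genes the median was -0.09, and over the 7454 genes with a mean of at least 2 log2 RPKM it was 0.06. Psme2, the PA28 beta subunit, was 3.56, 4.29, 3.08 and 3.28 log2 RPKM in TG Me-X04+ and 3.18, 3.27, 2.88, 2.61 and 2.28 log2 RPKM in TG Me-X04-. It was higher in 4 of 4 animals, with overlapping groups and a log2FC of 0.71 with an SE of 0.31 (limma, adjusted p = 0.221). A share of 28.3% of its 50-base words also occurs in Psme2b, so the counts of Psme2 and Psme2b are uncertain. Psme3, the related PA28 gamma activator of the nucleus, had a log2FC of -0.23 with an SE of 0.31.

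The catalytic subunits Psmb8, Psmb9 and Psmb10 replace Psmb5, Psmb6 and Psmb7 in the immunoproteasome. Psmb8 had 1.87, 3.33, 3.77 and 4.11 log2 RPKM in TG Me-X04+ and 2.67, 2.505, 3.80, 3.43 and 2.83 log2 RPKM in TG Me-X04-. Psmb9 had 3.42, 3.10, 2.66 and 1.95 log2 RPKM in TG Me-X04+ and 1.91, 1.70, 2.82, 2.68 and 2.52 log2 RPKM in TG Me-X04-. Psmb10 had 2.34, 2.56, 3.60 and 4.27 log2 RPKM in TG Me-X04+ and 2.37, 2.37, 4.52, 4.22 and 3.12 log2 RPKM in TG Me-X04-. The groups overlapped for all 3 genes. Their log2FC of 0.22, 0.46 and -0.13 had SEs of 0.54, 0.44 and 0.50 (limma, adjusted p = 0.875, 0.638 and 0.924). For Psmb9 the direction differed between the sets of libraries, with a difference of 1.46 log2 units in set A and -0.36 in set B.

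Constitutive catalytic subunits were measured beside them. Psmb6 was 3.25, 3.82, 4.60 and 4.36 log2 RPKM in TG Me-X04+ and 2.16, 2.37, 3.95, 3.98 and 3.06 log2 RPKM in TG Me-X04-. The level was higher in 4 of 4 animals, and the log2FC was 0.90 with an SE of 0.41 (limma, adjusted p = 0.236). With a term for the 2 sets of libraries the log2FC was 1.01 and past the threshold (limma, adjusted p = 0.00484). The sets were found from the spread of these same libraries, so a term for them lowers the residual spread by construction. Psmb5 and Psmb7 had log2FC of 0.33 and -0.09, with SEs of 0.36 and 0.27. Of the 50-base words of Psmb5, 54.1% occur in other genes (46.8% in the pseudogene Gm3375), so its counts are uncertain.

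The ratio of each immunoproteasome subunit to the constitutive one it replaces was taken within each library, so that it does not depend on the scaling of libraries. The log2 ratio of Psmb8 to Psmb5 was -0.60 ± 0.39 (SD, n = 4) in TG Me-X04+, -0.49 ± 0.22 (n = 5) in TG Me-X04- and -0.65 ± 0.72 (n = 7) in WT. For Psmb9 to Psmb6 the log2 ratios were -1.22 ± 1.17, -0.78 ± 0.43 and -1.19 ± 0.58. For Psmb10 to Psmb7 they were -0.54 ± 0.56, -0.50 ± 0.89 and -0.46 ± 0.50. In all 9 comparisons of groups the ratios overlapped. The counts of Psmb5 are uncertain, as said above, and so is the ratio of Psmb8 to Psmb5. Psmb8, Psmb9 and Psmb7 share 498, 212 and 405 exonic bases with genes on the other strand, and strand use in counting is not given. Exact two-sided permutation tests gave p from 0.222 to 0.952 over these 9 tests, and all adjusted p were 0.952. The smallest p these tests could give was 0.00794 for TG Me-X04+ against TG Me-X04-, 0.00126 for TG Me-X04- against WT and 0.00303 for TG Me-X04+ against WT. Between the TG groups the test shuffled all libraries freely and did not use the pairing by animal. The Psmb9 to Psmb6 ratio of TG Me-X04+ exceeded WT by 1.14 log2 units within set A, whereas within set B the difference was -1.15.

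**Figure D2:**
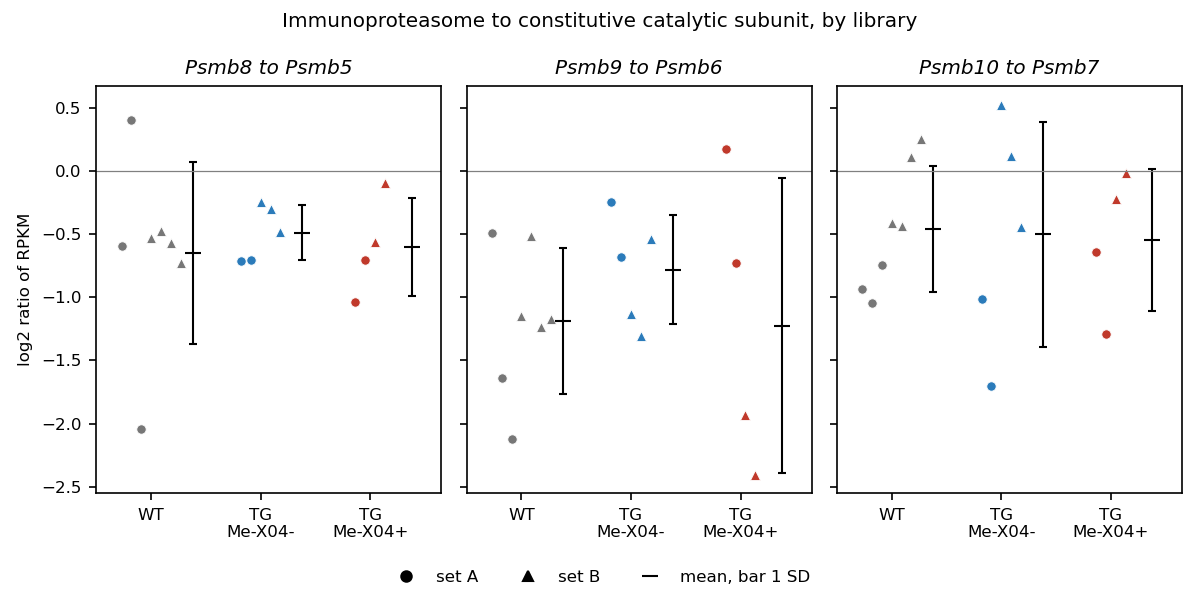
Log2 ratio of RPKM (y axis) of each interferon-inducible catalytic subunit to its constitutive counterpart, by library and group (x axis). Circles and triangles mark set A and set B, bars give the mean with 1 SD and the line marks equal levels per length; the groups overlap in every panel, and Psmb9 to Psmb6 in TG Me-X04+ runs from -2.40 to 0.17.

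Among the 15 core subunits, 11 had a log2FC above 0 in TG Me-X04+ against TG Me-X04- and 1 was called (Psmb1). Over all genes these shares were 44.4% and 5.49%. The median of the 15 was 0.14. Psma8, an alpha subunit known from the testis, had the highest value of the core, 1.30 with an SE of 0.54 (limma, adjusted p = 0.196). It read -0.01, 1.91, 3.22 and 1.94 log2 RPKM in TG Me-X04+ and -0.12 to 1.09 log2 RPKM in TG Me-X04-. TG Me-X04+ library 1 lay within the TG Me-X04- range, and without it Psma8 passed the threshold (1.89, limma, adjusted p = 0.0312). At the other end, Psmb4, a beta ring subunit, had -0.93 with an SE of 0.47 (limma, adjusted p = 0.306) and was lower in 4 of 4 animals. The alpha subunit Psma6 had -0.59 with an SE of 0.25 (limma, adjusted p = 0.207). Psma6 was called lower with quantile normalization (-0.84, limma, adjusted p = 0.0353) and when mitochondrial reads were left out of the scaling (-0.99, adjusted p = 0.0184).

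The 20 regulatory genes showed the narrowest spread of log2FC, from -0.34 to 0.43, and none was called (0 by limma voom on recovered reads as well, and 0 at an unadjusted p under 0.05). Of all genes, 5.49% were called by limma and 18.7% had an unadjusted p under 0.05. The median log2FC of the 20 was 0.21, and 12 of 20 were above 0, beside 44.4% of all genes. The 6 ATPases of the cap, Psmc1 to Psmc6, which unfold the substrate, had a median of 0.12. The 11 non-ATPase subunits, among them the ubiquitin receptor Psmd4 (0.21) and the deubiquitinase Psmd14 (0.28), had a median of 0.22. The alternative cap Psme4 had 0.20 and the inhibitor Psmf1 -0.34.

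The 7 assembly chaperones had the lowest median, -0.37, with 5 of 7 below 0 and 1 called (Psmg3). Of all genes, 9987 of 17951 were below 0 and 5.49% were called. With only 7 genes these counts are a description. Psmg1, which with Psmg2 starts the alpha ring, was 0.62, 1.46, -1.59 and 0.69 log2 RPKM in TG Me-X04+ and 1.47, 1.32, 1.29, 2.14 and 1.66 log2 RPKM in TG Me-X04-. TG Me-X04+ library 3 was the lowest, with 8 reads. The log2FC of Psmg1 was -1.28 with an SE of 0.47 (limma, adjusted p = 0.131), and that of its partner Psmg2 was -0.05. Psmg1 was called lower with library weights (-1.81, limma, adjusted p = 0.0236), with scaling by reads outside mitochondrial genes (-1.67, adjusted p = 0.0272) and in set B alone (-2.15, adjusted p = 0.0313), while in set A alone it was -0.36. Psmg4, which pairs with Psmg3, had 0.13 with an SE of 0.80. The cap chaperone Psmd9 had -1.30 with an SE of 0.64 (limma, adjusted p = 0.291), with reads from 8 to 147 in TG Me-X04+ and 82 to 347 in TG Me-X04-.

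Of all members, 31 of 49 had a log2FC above 0 in this comparison, against 44.4% of all genes. Comparisons with all genes do not match for level, and 40 of 49 members lay above the median level of all genes in WT. Of the 7454 genes with a mean of at least 2 log2 RPKM, 4116 were above 0. Their median log2FC was 0.06, beside 0.14 for the 49 members. The count of 31 members depended on the scaling. With libraries scaled by reads outside mitochondrial genes, the median of all genes moved from -0.09 to -0.49 and 9 of 49 members were above 0; with quantile normalization 27 were, and with median centring 32. The median of the members was 0.24 log2 units above that of all genes with the deposited scaling and 0.073 with quantile normalization. Scaling by reads outside mitochondrial genes shifts all genes of a library alike and so cannot change this difference. The 49 members together took a median of 0.0920% of the reads in TG Me-X04+, 0.123% in TG Me-X04- and 0.121% in WT libraries. Of the reads outside mitochondrial genes they took 0.146, 0.154 and 0.151%, with overlapping ranges.

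**Figure D3:**
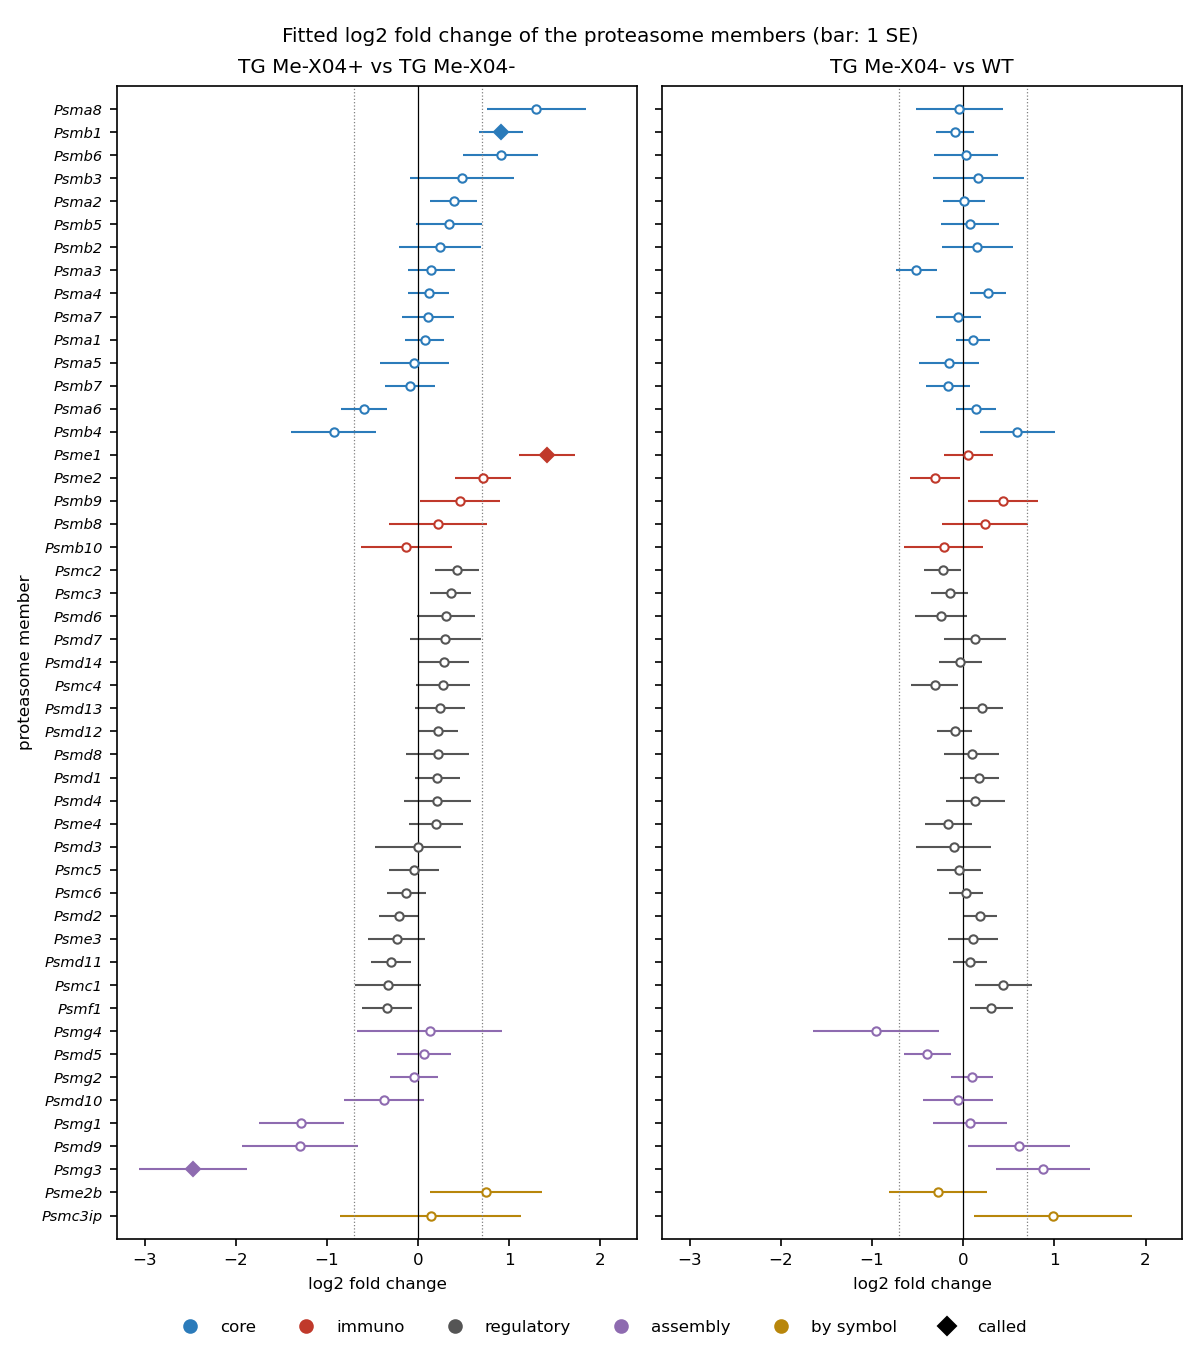
Fitted log2 fold change (x axis) of the 49 members (y axis) in TG Me-X04+ against TG Me-X04- (left) and for TG Me-X04- against WT (right), coloured by class, with bars of 1 SE. Filled diamonds are called genes and dotted lines mark a log2FC of 0.7 in size; on the left Psme1 and Psmb1 lie to the right and Psmg3 to the left, and on the right no member was called.

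Within animals, 7 of 49 members (14.3%) were higher in the TG Me-X04+ library in all 4 animals, as were 15.1% of all genes. Lower in all 4 were 2 members (4.08%), Psmg3 and Psmb4, against 13.9% of all genes. The 7 were Psme1, Psme2, Psme2b, Psmb1, Psmb6, Psma2 and Psmc3. The alpha subunit Psma2 had the smallest spread of these, with differences of 0.16 to 0.41 log2 units. These within-animal differences were taken with the deposited scaling only. Scaling by reads outside mitochondrial genes moved the median log2FC of all genes from -0.09 to -0.49, so the sign of small differences can depend on the scaling.

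**Figure D4:**
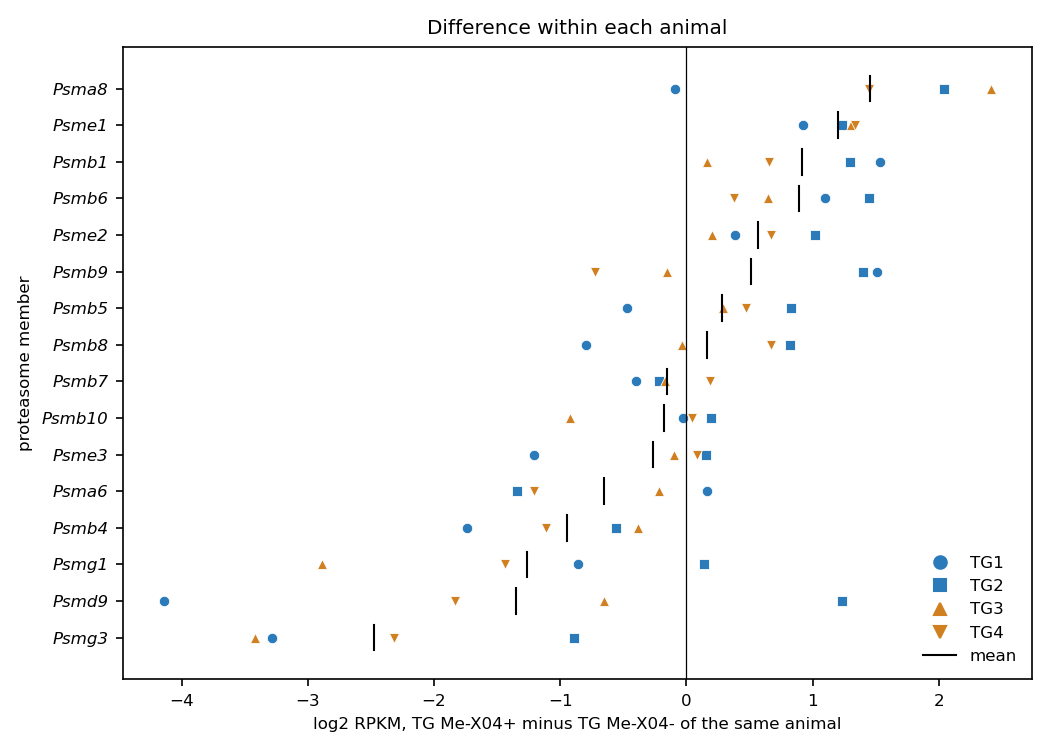
Difference in log2 RPKM between the TG Me-X04+ and the TG Me-X04- library of the same animal (x axis) for 16 members (y axis), with 1 symbol per animal and a line at the mean. Animals TG1 and TG2 (blue) are of set A and TG3 and TG4 (orange) of set B; the Psme1 differences lie between 0.92 and 1.33.

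TG Me-X04- microglia were compared with WT microglia to ask what differs in transgenic mice in cells without the dye. No member was called by limma (0 of 49) or by limma voom, against 0.201% of all genes. An unadjusted p under 0.05 was found for 1 member (2.04%), against 5.18% of all genes, and the groups overlapped for all 49, against 1.06% of all genes without overlap. The 1 member was the alpha subunit Psma3, with a log2FC of -0.52 and an SE of 0.23 (limma, adjusted p = 0.915). Psme1 had 0.06 with an SE of 0.27, Psmb1 -0.09 with an SE of 0.21 and Psmg3 0.88 with an SE of 0.52. The median log2FC was 0.03 for the core, 0.06 for the immunoproteasome and 0.05 for the regulatory genes, beside 0.01 over all genes.

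TG Me-X04+ microglia were also set against WT. Psme1 rose 2.77-fold (log2FC 1.47, SE 0.28, limma, adjusted p = 0.00166) and Psmb1 rose 1.76-fold (0.82, SE 0.23, limma, adjusted p = 0.0196). These 2 called members, both higher, are 4.08% of 49, while 14.3% of all genes were called, 8.25% higher and 6.02% lower. The groups did not overlap for 2 members (4.08%) and 10.5% of all genes, and an unadjusted p under 0.05 was found for 7 members (14.3%) and 27.8% of all genes. The Psme1 call was kept in all 11 fits that left out 1 library and in all 13 other alternatives run. Psmb1 was not called without TG Me-X04+ library 2 (0.67, limma, adjusted p = 0.0799). It also lost the call with library weights (0.63, adjusted p = 0.0890 by limma), quantile normalization (0.59, adjusted p = 0.103), scaling by reads outside mitochondrial genes (0.52, adjusted p = 0.184), in set A alone (1.10, adjusted p = 0.0780) and in set B alone (0.58, adjusted p = 0.0545). Psmg3 was lower by 1.59 on the log2 scale without passing the threshold (SE 0.55, limma, adjusted p = 0.0642), and passed it without WT library 1 or 2 or TG Me-X04+ library 2 or 4 (from -1.94 to -1.75). Without TG Me-X04+ library 1 Psma8 passed (1.85, limma, adjusted p = 0.00983), and without library 2 Psmg1 did (-1.60, limma, adjusted p = 0.0231). Psmb9 had 0.90 with an SE of 0.41 (limma, adjusted p = 0.163), and was called in set A alone (2.09, adjusted p = 0.0343) but was -0.11 in set B. With scaling by reads outside mitochondrial genes 1 member was called higher (Psme1) and 3 lower (Psma6, Psmg1 and Psmg3). Psmb6 had 0.94 with an SE of 0.38 (limma, adjusted p = 0.114) and Psmb8 0.46 with an SE of 0.50. The TG Me-X04+ libraries are shared by this comparison and the first.

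Genes of the same pathway outside the naming pattern were counted from fixed lists. None of the 30 ubiquitin-proteasome genes in the table was called by limma or limma voom in TG Me-X04+ against TG Me-X04-. The same held for TG Me-X04- against WT. Of all genes, limma called 5.49% and 0.201% in these comparisons. An unadjusted p under 0.05 was found for 3 and 0 of the 30, against 18.7% and 5.18% of all genes. Against WT, 3 of 30 were called in TG Me-X04+, beside 14.3% of all genes. Pomp, the chaperone that matures the core, was higher by 0.74 (SE 0.18, limma, adjusted p = 0.00881), the ubiquitin gene Rps27a by 1.20 (SE 0.26, adjusted p = 0.00355), and Akirin2, known for carrying proteasomes into the nucleus, fell by 0.72 (SE 0.21, adjusted p = 0.0251). Of 11 genes of MHC class I and its peptide loading, 2 rose in TG Me-X04+ against TG Me-X04-, where 3.44% of all genes were called higher. The 2 were B2m (1.54, SE 0.42, limma, adjusted p = 0.0382) and H2-D1 (1.21, SE 0.26, adjusted p = 0.0117), the light and a heavy chain. H2-D1 also rose in TG Me-X04- against WT (1.35, SE 0.23, limma, adjusted p = 0.0144), where no proteasome member was called. In TG Me-X04+ against WT, 4 of the 11 rose and 1 fell by limma, where 8.25% of all genes were called higher and 6.02% lower, and limma voom called 4.

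Of 13 interferon signalling genes, 1 fell in TG Me-X04+ against TG Me-X04-, the receptor Ifngr1 (-0.86, SE 0.22, limma, adjusted p = 0.0319). In this comparison 2.06% of all genes were called lower. The median log2FC of the 13 was 0.38, and 8 of 13 were above 0, beside 44.4% of all genes. An unadjusted p under 0.05, in either direction, was found for 4 of the 13, against 18.7% of all genes. None of the 13 was called by limma or limma voom for TG Me-X04- against WT, beside 0.201% of all genes by limma. There 3 had an unadjusted p under 0.05, against 5.18% of all genes. The median log2FC there was 0.55, and 11 of 13 were above 0, beside 51.6% of all genes. Between TG Me-X04+ and WT 5 rose and 1 fell, beside 8.25% and 6.02% of all genes, and limma voom called 6. The largest rises were 2.96 for Ifit3 (SE 0.83, limma, adjusted p = 0.0225), 2.57 for Isg15 (SE 0.48, adjusted p = 0.00131) and 2.01 for Nlrc5 (SE 0.38, adjusted p = 0.00141), which activates MHC class I genes.

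Markers of other cells were read beside these results. The 4 listed monocyte or border macrophage markers in the table summed to 1.77 to 18.0 RPKM in TG Me-X04+, 3.13 to 7.74 in TG Me-X04- and 4.07 to 7.55 in WT. The 2 neutrophil markers summed to 0.32 to 7.49, 0.32 to 19.6 and 0.32 to 11.8 RPKM. The sort also gated on CX3CR1, and the part of other cells in the results was not tested. Of the 9 microglia markers, 1 was called between the TG groups, Tmem119 (-1.58 in TG Me-X04+, limma, adjusted p = 0.00821), and the log2FC of the other 8 ran from -0.54 (Sall1) to 0.66 (Ptprc). The endothelial marker Flt1 was also called (3.55, limma, adjusted p = 0.00608), while Pecam1 (-2.47) and Kdr (-0.98) of that list were lower and uncalled. In TG Me-X04+ against WT, Tmem119, P2ry12, Snap25 (neuron), Pecam1 and Ccr2 (monocyte) were called lower and Flt1 higher. There the other monocyte or border macrophage markers ran from 0.32 (Mrc1) to 3.16 (Lyve1), uncalled.

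Levels per length differed widely among the members. In WT the core ran from 0.51 log2 RPKM (Psma8) to 4.77 (Psma2), with a median of 3.17. The immunoproteasome ran from 1.88 (Psmb9) to 4.66 (Psme1) with a median of 3.15, the regulatory genes from 1.00 (Psmd13) to 4.15 (Psmc5) with a median of 3.22, and the assembly chaperones from -0.48 (Psmg3) to 2.73 (Psmg2) with a median of 1.57 log2 RPKM. Psme2b had the highest level of the 49 in every group, with means of 6.83 log2 RPKM in TG Me-X04+, 6.09 in TG Me-X04- and 6.36 in WT. In the annotation it has 1 exon, and 68.7% of its 50-base words occur in Psme2.

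Part of the spread within groups followed the sets of libraries. Set B was higher within each of the 3 groups for 19 of 49 members (38.8%; 36.0% of all genes), and set A for 14 (28.6%; 24.3% of all genes). Of the 10 beta subunits, 8 were in the former, all but Psmb1 and Psmb9, and their means of set A minus set B ran from -1.35 (Psmb10) to -0.33 log2 units (Psmb7). The activators Psme1, Psme2, Psme3 and Psme4 were in the latter, with means of 0.68 to 0.75. Psme2b differed most, by 1.83 log2 units. The sets were found on all genes of the same libraries, so these differences are a description.

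**Figure D5:**
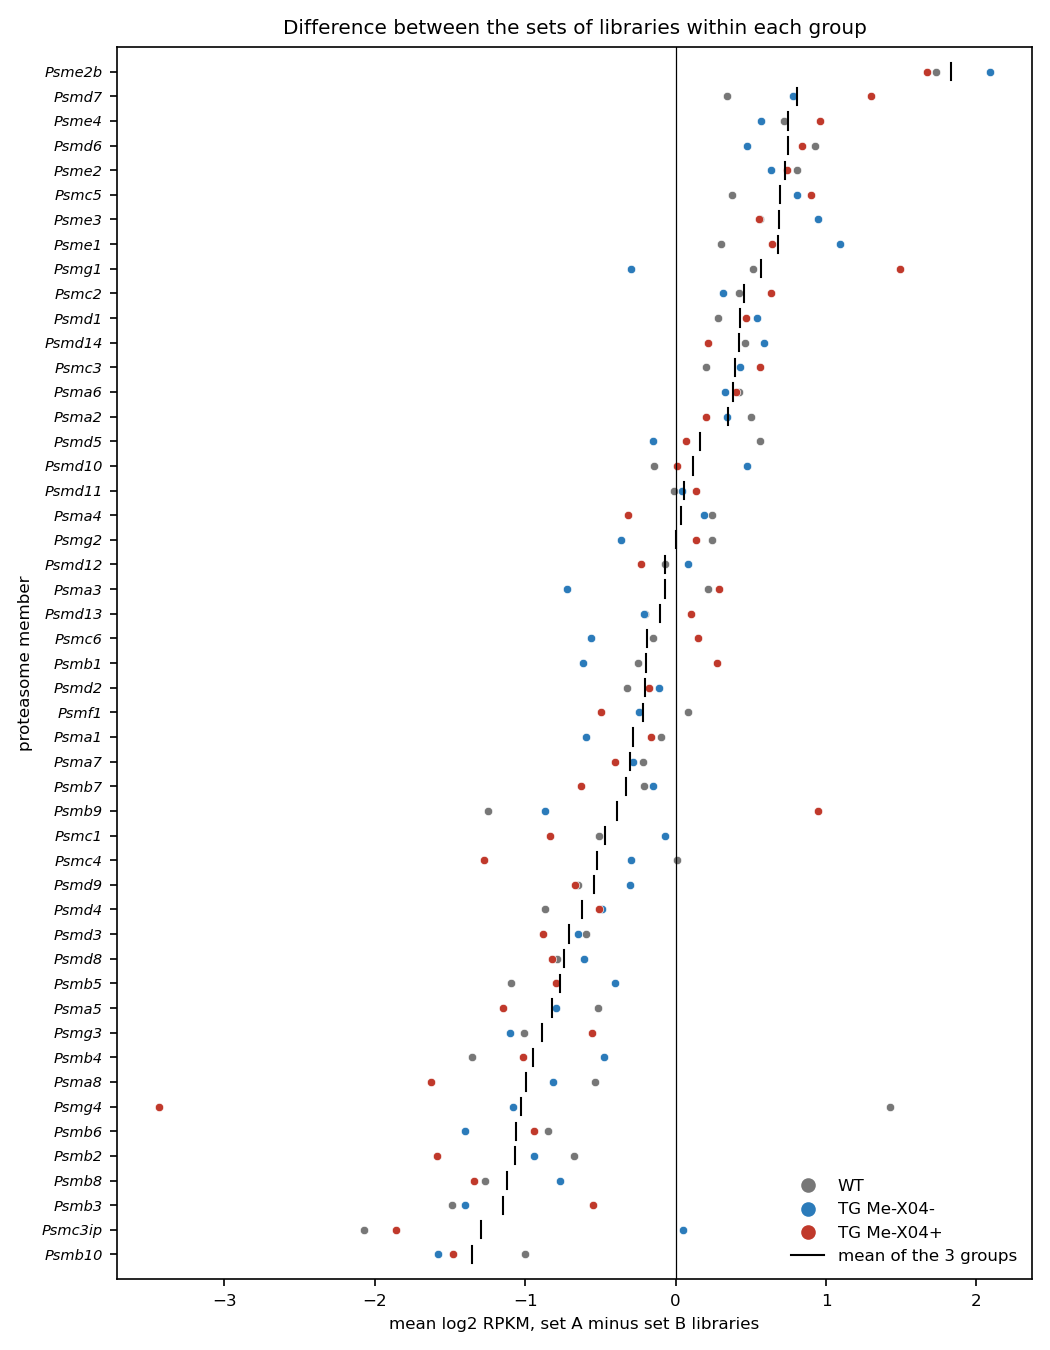
Mean log2 RPKM of set A minus set B libraries (x axis) for the 49 members (y axis) within each group (coloured points), with a line at the mean of the 3 groups. Psme2b lies to the right in all 3 groups, and Psmb10 to the left.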

How the data were processed

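The authors deposited log2 RPKM values for 17951 genes in 16 libraries. Per the submitters' processing notes and methods, reads were trimmed with Trim Galore 0.4.4, aligned to GRCm38 with STAR 2.5.4b, counted on Gencode genes with featureCounts, filtered on low counts, scaled by TMM and converted with edgeR 3.24.3. Strand use in counting is not given in the sources used here. The 12 columns of the authors' own comparisons (fold changes, p-values and related statistics) were not used. Reads were recovered from the steps of each library (100% of values within 0.01 of a whole read), for depth and alternatives only.

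Tests on the log2 RPKM used R 4.3.3 and limma 3.58.1 (trend, 3 groups in 1 fit, no covariate, two-sided), as a quasi-likelihood test needs counts. Nothing says whether the animals of a group were independent beyond their labels, so p-values measure the spread between these libraries. The members, lists and tests were chosen with earlier results of these data known. Named genes were the immunoproteasome members and their counterparts, called members, the 3 highest and 3 lowest log2FC, and called genes of the pathway lists. Psme2b, Psme4, Psmf1, Psma2, Psma3, Psma6, Psmb4, Psmc3, Psmd4, Psmd14, Psmg2 and Psmg4 were named after their values were seen. Same-numbered TG libraries come from the same animal by their labels, and their deviations from the group means correlated at r = 0.29 to 0.33 over genes. Differently numbered libraries of the same set had a mean r of 0.27 between the TG groups. Between TG Me-X04- and WT, which share no animal, that mean was 0.32. These correlations therefore do not show the pairing apart from the sets. Figures were drawn with matplotlib 3.10.9. The tests were checked on simulated data. Alternatives were other weights, scalings, pseudocount, filters, blocks, sets and libraries left out. The analysis restricted to 1 set of libraries was chosen after seeing the data. The term for the sets uses a split found from the deviations of these same libraries, so fits with it understate the spread.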

Additional observations from a re-analysis of the deposited data

Results flagged for a closer look

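WT replicate 3 lay far from the other WT libraries for 2 members. Its Psmb8 level was 0.636 log2 RPKM (62 reads) against 2.74 to 3.60 in the other 6, and its Psmd9 level was -1.74 log2 RPKM (31 reads) against -0.53 to 0.32. Of 60 groups of values looked at, 2 stood out in this way, and chance would give about 3. Without this library the log2FC of Psmb8 was -0.12 instead of 0.24 in TG Me-X04- against WT and 0.10 instead of 0.46 in TG Me-X04+ against WT, and neither was called with or without it.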

How the results depend on the processing

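Each result was recomputed with other processing choices and in each set of libraries alone. The number of members called in TG Me-X04+ against TG Me-X04- was 0 in set A alone and 0 with only the 2 groups fitted, and 1 to 3 with 1 library left out; without TG Me-X04- replicate 4 it was 1 (Psme1). In TG Me-X04+ against WT it was 4 with library weights, 4 with scaling outside mitochondrial genes, 6 with a term for the sets and 6 in set B alone, and 2 to 3 with 1 library left out. In TG Me-X04- against WT it was 0 throughout. The regulatory median was -0.18 against TG Me-X04- and -0.22 against WT with scaling outside mitochondrial genes, and the immunoproteasome median in TG Me-X04- against WT was 0.50 in set A alone. The Psmb9 to Psmb6 log2 ratio difference in TG Me-X04+ was -1.18 against TG Me-X04- in set B, and against WT 1.14 in set A but -1.15 in set B. The cause was not tested, apart from the fewer libraries in a single set.

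With the replicate block, Psmb1 lost its call against TG Me-X04- (0.95, limma, adjusted p = 0.0524), and Psmb6 gained one against WT (1.18, adjusted p = 0.0203), where numbers pair different animals. It changed no other call of a named gene. All genes called in TG Me-X04- against WT were 36, and 18 with this block.

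The sign of some uncalled log2FC turned. In TG Me-X04+ against TG Me-X04-, with scaling outside mitochondrial genes, Psmb8 was -0.17 and Psmb5 -0.058; with library weights Psmb9 was -0.064 and Psmb7 0.040; in set B Psmb9 was -0.36 and Psmb7 0.17; Psmb10 was 0.0021 with a term for the sets and 0.081 in set A. For TG Me-X04- against WT, library weights gave -0.17 for Psme1, -0.18 for Psmb5 and 0.10 for Psma8. Set B gave -0.25 for Psme1, -0.23 for Psmb5, -0.030 for Psme3, 0.052 for Psmb1 and 0.057 for Psma8. Set A gave -0.32 for Psmb6 and -0.40 for Psmg1, scaling outside mitochondrial genes 0.0014 for Psmb1 and 0.050 for Psma8, and the block 0.0077 for Psmb10. Set B gave -0.11 for Psmb9 in TG Me-X04+ against WT.

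With 1 library left out, signs also turned within these ranges. In TG Me-X04+ against TG Me-X04- they were -0.059 to 0.69 (Psmb8), -0.49 to 0.17 (Psmb10) and -0.27 to 0.16 (Psmb7). For TG Me-X04- against WT they were -0.12 to 0.38 (Psmb8), -0.51 to 0.025 (Psmb10), -0.17 to 0.27 (Psme1), -0.086 to 0.18 (Psmb5), -0.19 to 0.27 (Psmb6), -0.050 to 0.26 (Psme3), -0.22 to 0.11 (Psmb1), -0.20 to 0.11 (Psma8) and -0.066 to 0.20 (Psmg1). Against WT in TG Me-X04+ they were -0.43 to 0.024 (Psme3) and -1.21 to 0.063 (Psmd9).

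All genes called in TG Me-X04+ against TG Me-X04- were 986, against 85 in set A, 2262 in set B, 2142 with a term for the sets, 470 with only the 2 groups and 655 with the filter on low values. For TG Me-X04- against WT the 36 became 175 with library weights, 101 with a term for the sets, 13 with a pseudocount of 1, 0 in set A, 19 in set B and 16 with the filter, and for TG Me-X04+ against WT the 2562 became 3919 with a term for the sets, 1652 in set A and 1419 with the filter. The share of higher calls, 62.6% in TG Me-X04+ against TG Me-X04-, was 50.8% with quantile normalization and 20.8% with scaling outside mitochondrial genes. Low read counts limit Psmg3, Psmg1 and Psmd9.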
